A study of Homo sapiens with 7 samples.

Results

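H3K4me1 intervals that flank the starts of protein-coding genes were examined in SW1990 cells with and without knockdown of KMT2D. Each interval is 1 entry of a deposited peak list, that is, a place where ChIP signal exceeded the input. Intervals were taken when their midpoint lay 1000 to 5000 bases from the nearest 5′ end of a GENCODE release 44 protein-coding gene and when they overlapped no window of 1000 bases on either side of any such end. This gave 6947 of 64843 H3K4me1 intervals (10.7%, 95% exact binomial interval 10.5% to 10.95%) in control cells and 10888 of 92135 (11.8%, 11.6% to 12.03%) in knockdown cells. They are called flank intervals here, upstream or downstream in the direction of the gene, and a gene is called flanked when at least 1 flank interval has its start as the nearest one.

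KMT2D, also called MLL4 or MLL2, is a methyltransferase that places a single methyl group on lysine 4 of histone H3 (H3K4me1), and it is best known for doing so at enhancers. At gene starts the nucleosomes next to the start usually carry trimethylation, and H3K4me1 is typically found further out on one or both shoulders, where promoter-proximal enhancers also lie. A valley of H3K4me1 between 2 shoulders is therefore a familiar picture at active CpG island promoters.

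SW1990 is an established human pancreatic ductal adenocarcinoma line. ChIP-seq with antibodies against KMT2D, EBF2 and H3K4me1 was done in a negative control that received shRNA (NC) and in cells whose shRNA targeted KMT2D (KMT2D-KD), and 1 input library was given without the condition of its cells. The flank intervals come from 2 of the 7 libraries, NC H3K4me1 and KMT2D-KD H3K4me1, with no replicate of either, so every difference below is between 2 libraries and has no replicate check. How far KMT2D was depleted was not analysed here, and intervals in brackets cover counting error only.

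The appearance of a flank interval is shown by S100A10, the annexin A2 partner of the S100 family, because it carried the strongest upstream flank interval of NC outside the KMT2D and EBF2 lists. The 3 windows are the 201 bases around the NC upstream summit, the 200 bases before the start, and the 201 bases around the strongest NC downstream summit. They are on hg38 (the bases before the start from RefSeq on GRCh38.p14), written 5′ to 3′ on the strand of the gene (minus), and capitals mark CG dinucleotides.
S100A10 upstream flank, chr1:151995386-151995586: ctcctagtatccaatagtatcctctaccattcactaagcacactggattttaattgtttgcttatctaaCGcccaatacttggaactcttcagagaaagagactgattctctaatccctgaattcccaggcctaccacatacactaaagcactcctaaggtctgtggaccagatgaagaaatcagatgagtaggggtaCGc
S100A10 before the start, chr1:151993860-151994059: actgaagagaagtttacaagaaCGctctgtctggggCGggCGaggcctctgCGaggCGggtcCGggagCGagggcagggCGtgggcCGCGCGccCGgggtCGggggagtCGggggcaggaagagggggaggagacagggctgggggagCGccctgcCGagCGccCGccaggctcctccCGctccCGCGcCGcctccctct
S100A10 downstream flank, chr1:151988988-151989188: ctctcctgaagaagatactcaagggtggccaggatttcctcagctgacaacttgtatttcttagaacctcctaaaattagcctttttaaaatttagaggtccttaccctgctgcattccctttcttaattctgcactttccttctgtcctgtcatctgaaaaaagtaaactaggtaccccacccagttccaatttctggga
The bases before the S100A10 start held 22 CG dinucleotides at a GC content of 75%. The upstream window, which lies between genes, held 2 at 42.8% GC, and the downstream window, in the first intron, held 0 at 41.8% GC.

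RARA, the retinoic acid receptor alpha gene, is shown because it was flanked on both sides in both lists and also carried the flank interval with the highest −log10 q among those found in KMT2D-KD alone. CPD, which encodes carboxypeptidase D, carried the counterpart in NC alone. Both genes lie on the plus strand of chromosome 17, and the marking is the same.
RARA upstream flank, chr17:40306727-40306927: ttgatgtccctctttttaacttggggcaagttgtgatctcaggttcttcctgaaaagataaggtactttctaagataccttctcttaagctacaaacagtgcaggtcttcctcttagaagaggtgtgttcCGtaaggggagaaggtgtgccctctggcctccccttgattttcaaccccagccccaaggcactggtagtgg
RARA before the start, chr17:40308980-40309179: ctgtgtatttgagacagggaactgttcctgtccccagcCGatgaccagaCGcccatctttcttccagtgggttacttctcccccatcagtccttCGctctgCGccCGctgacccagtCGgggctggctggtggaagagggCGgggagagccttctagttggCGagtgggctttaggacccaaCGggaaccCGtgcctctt
RARA downstream flank, chr17:40313622-40313822: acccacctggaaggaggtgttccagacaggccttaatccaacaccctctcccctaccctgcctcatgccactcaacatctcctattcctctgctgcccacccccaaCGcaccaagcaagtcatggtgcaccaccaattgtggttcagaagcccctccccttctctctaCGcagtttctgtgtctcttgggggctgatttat
RARA downstream flank of KMT2D-KD alone, chr17:40311392-40311592: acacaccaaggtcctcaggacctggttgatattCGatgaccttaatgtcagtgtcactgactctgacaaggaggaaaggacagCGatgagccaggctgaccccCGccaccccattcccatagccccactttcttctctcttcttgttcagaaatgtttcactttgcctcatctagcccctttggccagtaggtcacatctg
CPD upstream flank of NC alone, chr17:30376517-30376717: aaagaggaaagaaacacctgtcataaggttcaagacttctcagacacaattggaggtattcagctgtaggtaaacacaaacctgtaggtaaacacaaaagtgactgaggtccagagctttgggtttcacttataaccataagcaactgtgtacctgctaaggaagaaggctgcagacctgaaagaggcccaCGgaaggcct
The RARA start held 10 CG dinucleotides at 60.5% GC, and the 3 RARA flank windows held 1 to 3. The interval of NC alone upstream of CPD held 1 at 44.8% GC.

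Flank intervals were about as wide as other H3K4me1 intervals and slightly weaker by −log10 q. The median width was 354 bases (NC) and 356 bases (KMT2D-KD), against 372 and 379 bases for intervals away from gene starts. Their median fold enrichment over the input, as given by the authors, was 4.04 (NC) and 4.17 (KMT2D-KD), against 4.17 in both libraries away from gene starts. The median −log10 q was 3.49 and 3.68, against 3.61 and 4.02 away from gene starts. At least 1000 bases of width were reached by 6.25% of NC and 8.53% of KMT2D-KD flank intervals, and by 8.80% and 11.8% of the intervals elsewhere. At the summit a flank interval rested on a median of 12 fragments in NC (8 to 82) and 11 fragments in KMT2D-KD (7 to 65). The background at the summit had a median of 2.10 fragments in NC and 1.74 in KMT2D-KD. The lower background and the smaller least number of fragments in KMT2D-KD stand beside every count below, and their part in the counts was not tested.

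Distance and side were examined next. Most flank intervals lay downstream of the start, 4595 of 6947 in NC (66.1%, 65.0% to 67.3%) and 7225 of 10888 in KMT2D-KD (66.4%, 65.5% to 67.2%). The shares of the 2 libraries overlapped within counting error. Per Mb of sequence at the same distance, NC had 65.5 downstream and 35.1 upstream flank intervals, while its whole genome had 22.1 H3K4me1 intervals per Mb. KMT2D-KD had 103.0 downstream and 54.6 upstream, with 31.4 genome-wide. The density thus stood at 2.97 times the genome level downstream and 1.59 times upstream in NC, and at 3.28 and 1.74 times in KMT2D-KD. Over 500-base bins all H3K4me1 intervals were sparsest in the 500 bases after the start, with 13.2 per Mb in NC and 22.3 in KMT2D-KD. They were densest at 2000 to 2500 bases downstream in NC (93.1 per Mb) and at 1500 to 2000 bases downstream in KMT2D-KD (151 per Mb). On the upstream side the highest bin was at 1500 to 2000 bases in NC (49.1 per Mb) and at 1000 to 1500 bases in KMT2D-KD (89.2 per Mb). In NC the neighbouring upstream bin (49.02 per Mb) and downstream bin (91.7 per Mb) were nearly as dense, so the position of the densest bin was not compared between the libraries. At 4500 to 5000 bases the downstream density had come down to 44.2 and 69.5 per Mb and the upstream density to 30.0 and 43.7 per Mb.

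**Figure D1:**
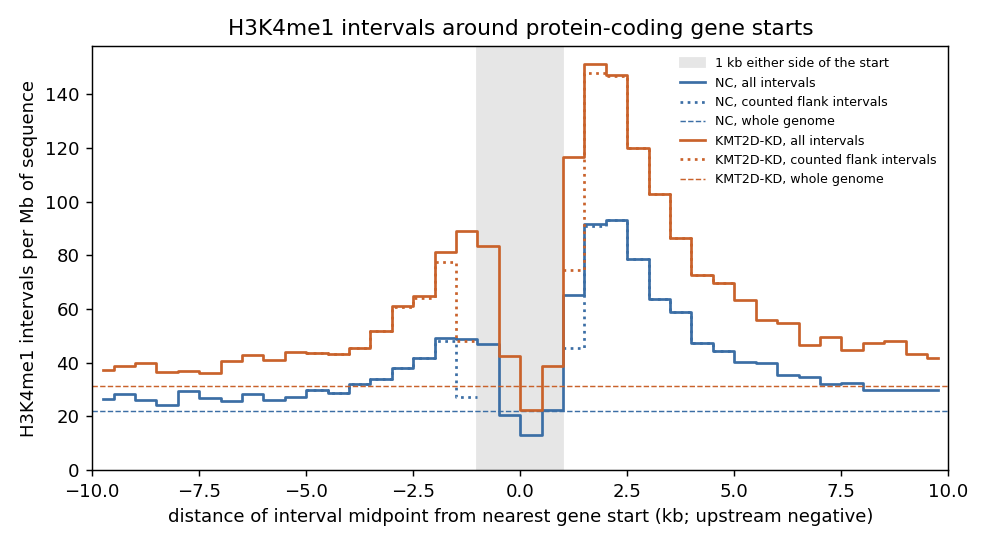
H3K4me1 intervals per Mb of sequence (vertical axis) against the distance of the interval midpoint from the nearest gene start in kb (horizontal axis, upstream negative) in 500-base bins; solid lines are all intervals, dotted lines the counted flank intervals, dashed lines the genome-wide level, and grey the window of 1 kb around the start. Both libraries dip at the start and peak downstream, at 93.1 per Mb in NC and 151 per Mb in KMT2D-KD.

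The edges of the rule did not set strong intervals apart from weak ones at the outer bound. Counted NC intervals at 4500 to 5000 bases had a median fold enrichment of 4.16, and the intervals just outside, at 5000 to 5500 bases, 4.07. In KMT2D-KD these medians were 4.17 and 4.29. At the inner bound, the 393 NC and 813 KMT2D-KD intervals that the promoter window left out were wider, with median widths of 462 and 546 bases and median fold enrichments of 4.21 and 4.44.

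Upstream and downstream flank intervals lay in different kinds of sequence. By its summit, a downstream interval lay in the first intron of its gene in 58.8% of NC and 59.3% of KMT2D-KD cases, and in a later intron in 21.3% and 21.01%. Coding exons held 2.76% and 2.87% of the downstream intervals and untranslated exons 5.01% and 4.37%. Of the upstream intervals, 68.5% in NC and 68.3% in KMT2D-KD lay between genes, and 27.1% and 27.5% lay in an intron of another gene. Not every flank interval was far from every start. Of the downstream intervals, 14.5% (NC) and 15.7% (KMT2D-KD) lay within 1000 bases of the start of another protein-coding transcript, and 14.8% and 15.6% of the upstream intervals also lay 1000 to 5000 bases downstream of another gene.

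KMT2D-KD had more flank intervals than NC. The log2 ratio of the numbers (KMT2D-KD / NC) was 0.65 (0.60 to 0.69), which is 1.57 times as many, and it was the same on the upstream side (0.64, 0.56 to 0.71) and the downstream side (0.65, 0.60 to 0.71) within counting error. For intervals in the promoter windows the ratio was higher, 0.92 (0.82 to 1.01), and for intervals elsewhere it was lower, 0.48 (0.46 to 0.49). The sequence under flank intervals summed to 3199 kb for NC, and for KMT2D-KD to 5358 kb, 1.67 times as much. The number was higher in KMT2D-KD on each of chromosomes 1 to 22 and X, with ratios between 1.30 (chromosome 5) and 2.24 (chromosome 19). The same held for all H3K4me1 intervals, with ratios between 1.24 (chromosome 5) and 2.06 (chromosome 19). On chromosome 20 the ratio of all intervals (1.49) was above that of flank intervals (1.39). Among flank intervals with a −log10 q of at least 5 the numbers were 1479 and 2982, a log2 ratio of 1.01 (0.92 to 1.10). The size of the difference depended on the length of the lists. When both H3K4me1 lists were cut to the same number of intervals by −log10 q, 6947 NC and 7404 KMT2D-KD flank intervals were left, a log2 ratio of 0.092 (0.044 to 0.14), while the ratio elsewhere was −0.022 (−0.039 to −0.0051) and in the promoter windows 0.38 (0.28 to 0.48). The order promoter window, flank, elsewhere was the same in both.

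The places were compared between the lists. Of the NC flank intervals, 4852 (69.8%, 68.7% to 70.9%) overlapped an H3K4me1 interval of KMT2D-KD and 30.2% did not, against 30.3% of all NC H3K4me1 intervals. The NC flanks were thus missing from the other list at the rate of the whole NC list. Of the KMT2D-KD flank intervals, 4523 (41.5%, 40.6% to 42.5%) overlapped an NC interval and 58.5% did not, against 53.4% of all KMT2D-KD intervals. With equal numbers of intervals the KMT2D-KD flanks not found in NC were 49.3% (48.2% to 50.5%), against 43.9% over that whole list. The KMT2D-KD flank intervals found in NC were fewest close to the start, 31.0% at 1000 to 1500 bases downstream and 28.3% at the same distance upstream, against 41.0% and 40.5% at 4500 to 5000 bases. The promoter window takes the wider intervals out of this inner range (in KMT2D-KD, 741 left out with a median width of 502 bases and 1099 counted with 296 bases), and 39.8% of the KMT2D-KD intervals in the promoter windows were found in NC. The part of this in the difference with distance was not tested. Intervals found in the other list were stronger, with a median −log10 q of 3.84 against 2.85 in NC and 4.97 against 3.32 in KMT2D-KD. Among the stronger ones (−log10 q from 5 up), 89.2% of NC and 70.9% of KMT2D-KD flank intervals were found in the other list, against 91.5% and 74.8% of all intervals of that strength. Composition moved with these sets. The median GC content of a 500-base window around the summit was 43.9% for NC and 45.5% for KMT2D-KD flank intervals, 42.1% for those of NC alone and 45.9% for those of KMT2D-KD alone. Intervals elsewhere were at 42.7% and 44.1%. The part of GC content in the difference between the lists was not tested.

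Height was compared where an NC flank interval overlapped a KMT2D-KD flank interval. There were 4762 such pairs, with a median log2 ratio of fold enrichment (KMT2D-KD / NC) of 0.17 (0.15 to 0.19), and the interval was higher in KMT2D-KD in 65.9% of them. A fold enrichment at least 1.5 times as high in KMT2D-KD was found in 803 pairs (16.9%), against 18.8% of all 48128 shared H3K4me1 pairs. The opposite, at least 1.5 times as high in NC, was found in 147 pairs (3.09%), against 3.66% of all. Both shares were slightly under those of all pairs, and the median over all pairs was 0.19 (0.19 to 0.20). The paired flank intervals were 430 bases (NC) and 587 bases (KMT2D-KD) wide in the median, and all pairs 465 and 643.5 bases. Fold enrichment also depends on the background, whose median at flank summits was 1.74 fragments in KMT2D-KD and 2.10 in NC. The part of this background difference in the height ratio was not tested.

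**Figure D2:**
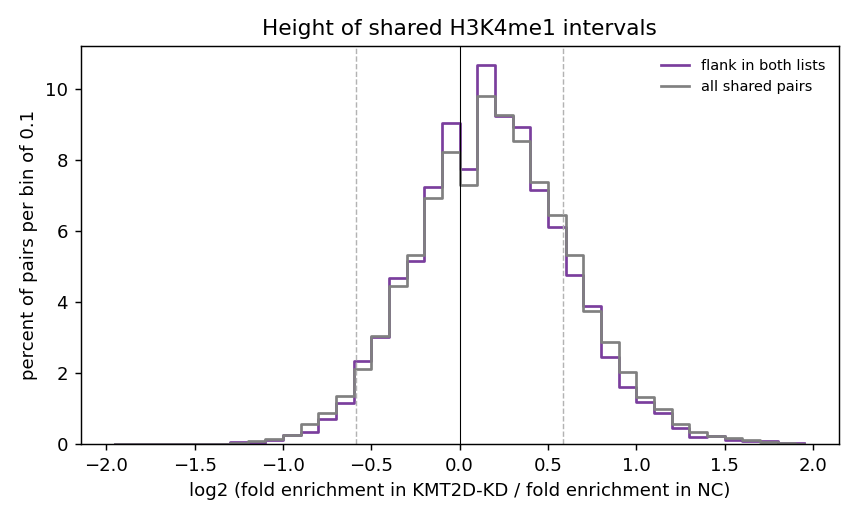
Distribution of log2 fold enrichment in KMT2D-KD over NC (horizontal axis) as a percent of pairs per bin of 0.1 (vertical axis), for 4762 pairs of flank intervals and for all 48128 shared pairs; dashed lines mark 1.5 times in either direction. The flank curve follows the curve of all pairs, with medians of 0.17 and 0.19.

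At the level of genes, 4546 of 20033 (22.7%, 22.1% to 23.3%) were flanked in NC and 6490 (32.4%, 31.7% to 33.0%) in KMT2D-KD. Downstream alone was the most common state in both, with 2796 genes (14.0%) in NC and 3941 (19.7%) in KMT2D-KD. Upstream alone was found at 1192 genes (5.95%) and 1586 genes (7.92%). Both sides carried an interval at 558 genes (2.79%, 2.56% to 3.02%) in NC and at 963 genes (4.81%, 4.51% to 5.11%) in KMT2D-KD. The log2 ratio of gene numbers was 0.51 (0.46 to 0.57) for flanked genes and 0.79 (0.64 to 0.94) for genes flanked on both sides. With equal numbers of intervals these were 0.11 (0.049 to 0.17) and 0.11 (−0.054 to 0.28), so the larger number of genes flanked on both sides was then within counting error of no difference. Both sides were found at 12.3% (11.3% to 13.3%) of the genes flanked in NC, and at 14.8% (14.0% to 15.7%) of those flanked in KMT2D-KD. The sides went together. In NC, 31.9% (29.7% to 34.1%) of genes with an upstream interval also had a downstream one, against 15.3% (14.8% to 15.8%) of genes without an upstream interval. In KMT2D-KD these shares were 37.8% (35.9% to 39.7%) and 22.5% (21.9% to 23.2%).

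**Figure D3:**
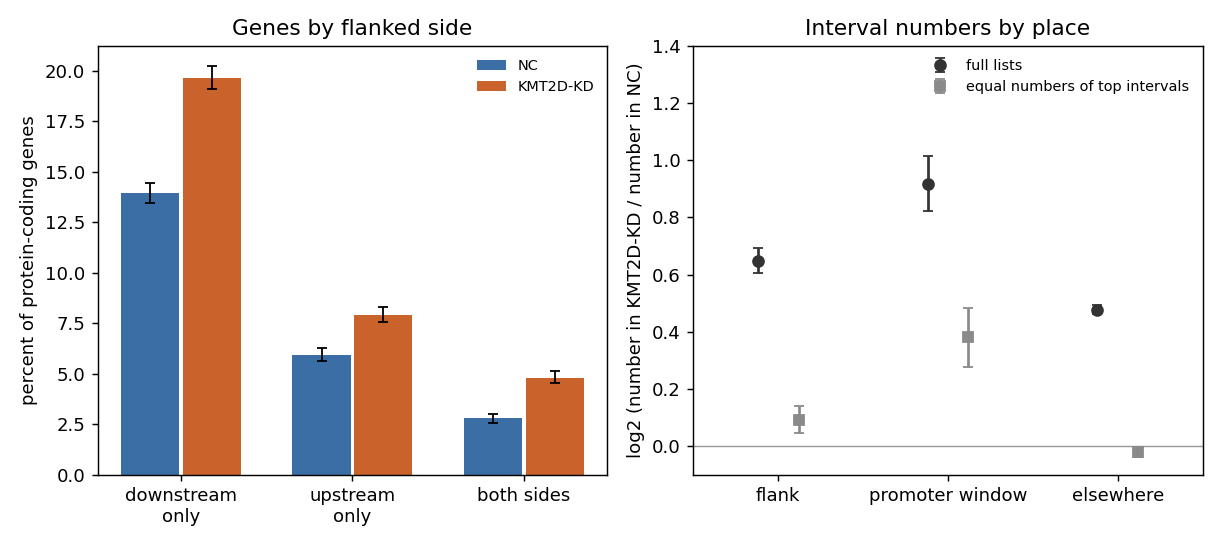
Left, percent of 20033 protein-coding genes (vertical axis) flanked downstream only, upstream only or on both sides in NC and KMT2D-KD, with 95% exact binomial intervals. Right, log2 ratio of interval numbers, KMT2D-KD over NC (vertical axis), for flank, promoter window and other intervals, with 95% counting intervals; circles are the full lists and squares lists of equal length, where the flank ratio is 0.092 in place of 0.65.

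Most NC flanked genes were flanked in KMT2D-KD as well. Both lists flanked 3809 genes, NC alone 737 and KMT2D-KD alone 2681. Of the 558 genes with both sides in NC, 373 (66.8%, 62.8% to 70.7%) had both sides in KMT2D-KD, 99 had the downstream side only, 63 the upstream side only and 23 had neither. Of the genes with 1 side in NC, 183 with upstream only and 232 with downstream only had both sides in KMT2D-KD, and 175 genes had neither side in NC and both in KMT2D-KD. Genes with both sides were flanked in the other list more often than genes with 1 side, in 95.9% (93.9% to 97.4%) against 82.1% (80.9% to 83.3%) of NC genes and in 81.8% (79.2% to 84.2%) against 54.7% (53.3% to 56.0%) of KMT2D-KD genes. A gene with both sides has at least 2 intervals that can be found again. Counted by interval, the shares found in the other list were 75.4% (73.2% to 77.5%) at genes with both sides and 68.1% (66.9% to 69.4%) at genes with 1 side in NC, and 46.9% (45.1% to 48.7%) and 39.5% (38.4% to 40.6%) in KMT2D-KD. The intervals at genes with both sides were also stronger. A −log10 q of at least 5 was reached by 25.8% against 19.9% in NC, and by 33.0% against 25.3% in KMT2D-KD. Among these stronger intervals, 90% against 88.95% were found in the other list in NC, and 76.0% against 68.3% in KMT2D-KD. The part of strength was not tested.

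Between the 2 shoulders lay a gap whose median spanned 4631.5 bases in NC, and 4307 bases in the knockdown library. At the 373 genes with both sides in both lists it was 4525 bases (NC) and 4255 bases (KMT2D-KD), narrower in KMT2D-KD at 233 genes and wider at 140. Flank intervals overlap no promoter window, so the gap cannot be narrower than that window. KMT2D-KD also had more flank intervals (10888 against 6947 in NC), and its paired ones were wider (median 587 against 430 bases). More or wider intervals can by themselves narrow the gap. Their part in the gap differences was not tested, and the gap was not compared in lists of equal length. The gap was often not empty. An interval in the promoter window was present at 24.7% (21.2% to 28.5%) of genes with both sides in NC, at 16.6% with upstream only, at 10.5% with downstream only and at 4.26% with neither. In KMT2D-KD these shares were 30.0% (27.1% to 33.0%), 21.9%, 18.2% and 7.58%.

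Gene starts differed in CpG content by state. A start was called CpG-rich when the observed over expected CpG ratio of its 500-base window was at least 0.6, which held for 61.0% of all starts. In NC, 79.6% (78.0% to 81.1%) of genes with downstream only had a CpG-rich start, against 72.0% (68.1% to 75.7%) with both sides, 62.8% (59.9% to 65.5%) with upstream only and 57.2% (56.4% to 58.0%) with neither. In KMT2D-KD the order was the same, at 80.1%, 73.8%, 63.0% and 54.4%. CpG-rich starts were flanked in 27.6% of cases in NC and 39.8% in KMT2D-KD, and CpG-poor starts in 15.01% and 20.8%. The classes differed mostly on the downstream side. In NC, downstream only was the state of 18.2% (17.5% to 18.9%) of CpG-rich and 7.32% (6.75% to 7.92%) of CpG-poor starts, and upstream only of 6.12% (5.70% to 6.56%) and 5.69% (5.19% to 6.23%). The flank intervals themselves were CpG-poor, as in the windows printed above. Their median CpG ratio was 0.193 in NC and 0.211 in KMT2D-KD, and 0.374% and 0.790% of them were CpG-rich. For intervals elsewhere the ratio was 0.167 and 0.181 and the CpG-rich share 0.230% and 0.345%.

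Short motifs were searched on both strands in the 100 bases on either side of each summit. The AP-1 site TGANTCA occurred in 6.48% (5.91% to 7.08%) of the NC flank windows and in 6.28% (5.83% to 6.75%) of those of KMT2D-KD, against 8.34% (8.11% to 8.57%) and 8.08% (7.89% to 8.27%) of windows elsewhere. It was in 7.53% (6.49% to 8.67%) of upstream and 5.94% (5.28% to 6.66%) of downstream windows in NC, where the counting intervals overlapped, and in 7.56% (6.73% to 8.47%) and 5.63% (5.11% to 6.19%) in KMT2D-KD, where they did not. The SP/KLF box GGGCGGG was in 0.921% (0.710% to 1.17%) of NC flank windows and 0.651% (0.586% to 0.720%) of windows elsewhere. In KMT2D-KD it was in 1.07% (0.889% to 1.29%) and 0.856% (0.793% to 0.923%). The counting intervals overlapped in both lists. The palindromic core of EBF factors, in the form CCCNNGGG, was in 3.94% of NC and 4.67% of KMT2D-KD flank windows, against 3.73% and 4.28% elsewhere. The TEAD site CATTCCA was in 4.16% and 4.197% of flank windows and in 4.47% and 4.31% of windows elsewhere, and the GATA site AGATAAG in 3.18% and 2.81% against 3.13% and 2.87%. The FOX site TGTTTAC was in 3.18% and 2.46% against 3.18% and 2.80%, and the HNF1 site GTTAATNAT in 0.792% and 0.542% against 0.689% and 0.508%. The ETS site CCGGAAG was in 0.417% and 0.625% against 0.430% and 0.542%, and the CTCF core AGGGGGC in 2.22% and 2.34% against 1.86% and 2.20%. None of the 12 windows of the strongest intervals named below held the AP-1 site, but 12 windows are too few to set against shares of 6.48% and 6.28%.

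Genes flanked on both sides in both lists with the highest −log10 q at their weakest side were DENND1A, CERS2, S100A10, HACD2, RARA, TINAGL1, KRT7 and SNRPA1. DENND1A, an exchange factor of the Rab35 pathway, had an upstream interval of fold enrichment 7.77 in NC and 7.71 in KMT2D-KD and a downstream one of 8.10 and 9.72. CERS2, a ceramide synthase, had 7.37 and 11.8 for its strongest upstream interval in NC and KMT2D-KD, and 8.35 and 9.78 downstream. In KMT2D-KD a single interval of 2534 bases covered ground downstream of CERS2 where NC had separate intervals of 448 and 853 bases. S100A10 had fold enrichments of 10.8 in NC and 11.3 in KMT2D-KD upstream, on 30 and 29 fragments, and of 6.48 and 8.74 downstream. HACD2, an enzyme of very long chain fatty acid synthesis, had 7.40 and 8.26 upstream and 7.21 and 6.30 downstream. KRT7, a keratin of ductal epithelium, had 6.48 in NC and 9.84 in KMT2D-KD upstream and 5.64 and 6.75 downstream. Its upstream NC intervals of 784 and 373 bases were spanned by 1 KMT2D-KD interval of 2007 bases. TINAGL1, a secreted matrix protein, had 6.32 and 8.35 upstream. Downstream, its interval nearest the start was at 7.02 (NC) and 5.31 (KMT2D-KD) and the farther one at 6.81 and 10.2. SNRPA1, a protein of the U2 spliceosome particle, was weaker in KMT2D-KD on both sides, with 7.90 and 6.04 upstream and 6.67 and 4.93 at the overlapping interval downstream. Another downstream interval of KMT2D-KD, of 6.07, was not found in NC. In this set, chosen for strength in both lists, some intervals were higher in KMT2D-KD and others in NC.

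**Figure D4:**
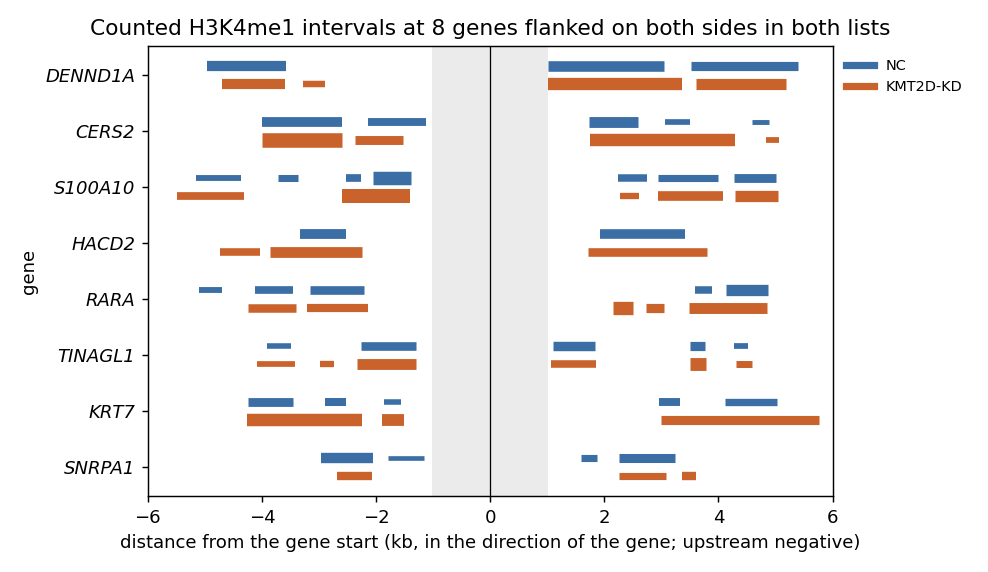
Counted H3K4me1 intervals of 8 genes (vertical axis) by distance from the gene start in kb in the direction of the gene (horizontal axis); bars show each interval's extent, their thickness grows with fold enrichment, and grey marks the excluded window of 1 kb either side. The same shoulders carry intervals in both libraries, and the KMT2D-KD interval downstream of KRT7 (2774 bases) spans places where NC has intervals of 361 and 914 bases.

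At RARA the picture was mixed. The upstream NC intervals had fold enrichments of 3.75, 5.41 and 6.31 and the KMT2D-KD ones 6.201 and 5.90. Downstream, NC had intervals at 3737 and 4498 bases with fold enrichments of 5.27 and 8.78, and 1 KMT2D-KD interval at 4166 bases with 8.39 overlapped them. KMT2D-KD alone had an interval at chr17:40311324-40311687, 2326 bases from the start in the first intron, with a fold enrichment of 10.6 on 27 fragments, and another at 2892 bases with 6.83.

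Apart from 1 upstream interval per list that overlapped a KMT2D or EBF2 interval and is given last, the strongest flank intervals by −log10 q were these. Upstream in NC they were those of S100A10, of MIOS (a GATOR2 subunit of mTORC1 signalling, fold enrichment 10.2 on 28 fragments) and of KRT80 (a keratin, 8.25 on 34 fragments). Downstream in NC they were those of SDC4 (the heparan sulfate proteoglycan syndecan 4, 9.77), KRT32 (a keratin, 9.83) and PRR5L (an mTORC2-associated protein, 7.98). Upstream in KMT2D-KD they were those of ENSG00000284969 (12.2), ZMYND8 (a chromatin reader, 11.9) and DDIT4 (an inhibitor of mTORC1, 11.4). Downstream in KMT2D-KD they were those of NIBAN2 (14.0 on 46 fragments), TXNRD1 (thioredoxin reductase, 14.0 on 36 fragments) and SDC4 (13.1 on 35 fragments). Each of these 12 was found in the other list.

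The strongest intervals without a counterpart were weaker than these in both lists. In NC they lay upstream of CPD (fold enrichment 6.66, −log10 q 8.75), COX14 (5.97, 8.06), which encodes a cytochrome c oxidase assembly factor, and HAP1 (6.32, 7.92). In KMT2D-KD they were those of RARA (10.6, 19.5), INTS12 (9.49, 16.2), an Integrator subunit, and ENAH (9.11, 15.1), an actin regulator.

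Of the 23 genes with both sides in NC and neither in KMT2D-KD, 17 had no interval that overlapped anything in the KMT2D-KD list, and 6 had at least 1 that did. The KMT2D-KD interval it overlapped was not counted as a flank interval of that gene. The counterpart set was larger, 175 genes with both sides in KMT2D-KD and neither in NC, of which 164 had no overlap at all and 11 had one. Among the first were CFTR, the chloride channel of duct cells (fold enrichments 5.13 upstream and 4.03 downstream in NC, the upstream one with an overlap in KMT2D-KD), KIAA1549 (4.56 and 5.62), HOXC9 (3.71 and 4.31), INPP5K (4.21 and 4.32, the downstream one with an overlap) and C12orf71 (4.91 and 6.32, both with an overlap). Among the second were FOLR1, a folate receptor (5.16 upstream and 4.98 downstream in KMT2D-KD), SUN1, a nuclear envelope protein (5.69 and 4.92), FNBP4 (4.39 and 3.96), C14orf180 (6.21 and 5.47, the upstream one with an overlap) and SLC35E1, which had 2 intervals on each side with fold enrichments of 4.76 to 5.68.

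Gene lists were compared with the share over all genes, 22.7% in NC and 32.4% in KMT2D-KD. In NC the exact interval lay above the share of all genes for the YAP and TEAD, p53, TGF-β, EGFR and MAPK, epithelial factor, ribosomal protein and proteasome lists. In KMT2D-KD the intervals of the EGFR and MAPK list (28.2% to 71.8%) and of the epithelial factor list (18.8% to 59.4%) included it. CpG-rich starts made up from 58.3% (epithelial factor) to 91.9% (ribosomal protein) of these lists, against 61.0% of all genes. In NC, CpG-rich starts were flanked in 27.6% of cases. The lower bounds of the EGFR and MAPK (24.4%), epithelial factor (25.6%) and proteasome (27.3%) lists lay under that share, and those of the others above it. The part of CpG content was not tested. Targets and members of the YAP and TEAD pathway were flanked at 11 of 20 genes in NC and 15 in KMT2D-KD. NUAK2, a kinase induced by YAP, had its strongest downstream interval at a fold enrichment of 5.97 in NC and 8.73 in KMT2D-KD. TEAD1 had a strong upstream interval in both (7.66 and 5.73) and a downstream one (3.53) in NC only. The p53 target list was flanked at 12 of 22 genes in NC and 16 in KMT2D-KD, the TGF-β and SMAD list at 12 and 15 of 23, and the EGFR and MAPK feedback list at 10 and 11 of 22. In the p53 list, GADD45A, a growth arrest gene, had an upstream interval of 7.02 in NC and 7.21 in KMT2D-KD, and a downstream one of 4.17 in KMT2D-KD only. In the TGF-β list, ACVR1B, a type I activin receptor, had only downstream intervals, of up to 5.87 in NC and 6.61 in KMT2D-KD. DUSP5, a phosphatase of ERK, was flanked on both sides in both lists, with 5.53 in NC and 9.22 in KMT2D-KD at 2600 and 2510 bases downstream. ERRFI1, an inhibitor of EGFR, had 6.31 and 9.11 upstream.

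Among transcription factor lists, the AP-1 list was flanked at 5 of 14 genes in NC and 8 in KMT2D-KD, on both sides at 3 and 6. Over all genes, both sides were flanked at 2.79% and 4.81%. No interval was taken for the small both-sided counts of the list. FOSL1 and ATF3 had intervals on both sides in both lists, FOSL1 with 6.06 in NC and 6.44 in KMT2D-KD at its nearer upstream interval, and ATF3 with 6.67 and 6.45 upstream. The epithelial factor list was flanked at 11 of 24 genes in NC and at 9 in the knockdown library, and the EMT list at 6 and 5 of 17. These were the lists with fewer flanked genes in KMT2D-KD, by 2 genes and 1 gene. SNAI1, an EMT factor, had a downstream interval of 7.87 in NC and 8.60 in KMT2D-KD. TFAP2C had a downstream interval of 6.06 in NC and 4.11 in KMT2D-KD. The pancreas and endoderm factor list was flanked at 2 of 25 genes (8%, 0.984% to 26.03%) in NC and 3 (12%, 2.55% to 31.2%) in the knockdown library, with CpG-rich starts at 80% of its genes. Only the second of these intervals left out the share of all genes. SOX9, a ductal factor, had a downstream interval of 4.56 in NC and 5.31 in KMT2D-KD. HOX genes were flanked at 7 and 9 of 39.

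Among genes of general cell functions, those of ribosomal proteins, the proteasome and DNA replication were flanked mostly downstream. Ribosomal protein genes were flanked at 43 of 86 in NC (50%, 39.0% to 61.0%) and 57 in KMT2D-KD (66.3%, 55.3% to 76.1%), with a downstream interval at 39 and 50 and an upstream one at 7 and 11. CpG-rich starts made up 91.9% of this list, and their part in its share was not tested. RPS3 had a downstream interval of fold enrichment 7.32 in NC (2239 bases wide) and 6.16 in KMT2D-KD (2188 bases). Proteasome genes were flanked at 14 and 21 of 31, with 13 and 19 downstream, and PSMD2 had 5.58 in NC and 6.39 in KMT2D-KD. DNA replication genes were flanked at 12 and 19 of 40, with 11 and 16 downstream. CDC6, a licensing factor, had an upstream interval of 5.97 and 7.59, and a downstream one of 7.03 in KMT2D-KD only. The hypoxia and glycolysis list was flanked at 10 and 14 of 27. LDHA, lactate dehydrogenase A, had upstream intervals in both and a downstream one of 1599 bases (fold enrichment 7.59, −log10 q 11.1) in KMT2D-KD only. Epithelial junction genes were flanked at 8 and 12 of 26, writers and erasers of H3K4 methylation at 8 and 10 of 21. Respiratory complex I genes were flanked at 8 and 10 of 37. The exact intervals of these lists, and of the DNA replication and the hypoxia and glycolysis lists, included the share of all genes in both libraries. In NC they were 14.3% to 51.8% (junction), 18.1% to 61.6% (writers and erasers) and 9.83% to 38.2% (complex I). DNA replication stood at 16.6% to 46.5%, and hypoxia and glycolysis at 19.4% to 57.6%. In KMT2D-KD their lower bounds were 31.5% and 31.9%, against 32.4% of all genes.

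Lists of genes that are mostly silent in epithelial cells were rarely flanked. These were olfactory receptors (11 and 18 of 415, 2.65% and 4.34%), keratin-associated proteins (4 and 4 of 94) and neuronal channels and receptors (1 and 2 of 29). CpG-rich starts made up 1.45%, 0% and 31.0% of these lists, against 61.0% of all genes. CpG-poor starts were flanked in 15.01% (NC) and 20.8% (KMT2D-KD) of cases over all genes. The intervals of the neuronal list (0.0873% to 17.8% and 0.846% to 22.8%) included these shares. The parts of CpG content and of expression were not tested. OR1L8, with 4 NC intervals of up to 6.52, was an exception. Zinc finger genes of the ZNF family were flanked at 78 (16.4%, 13.2% to 20.0%) and 128 (26.9%, 22.96% to 31.1%) of 476, below the share of all genes, although 73.7% of their starts were CpG-rich.

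**Figure D5:**
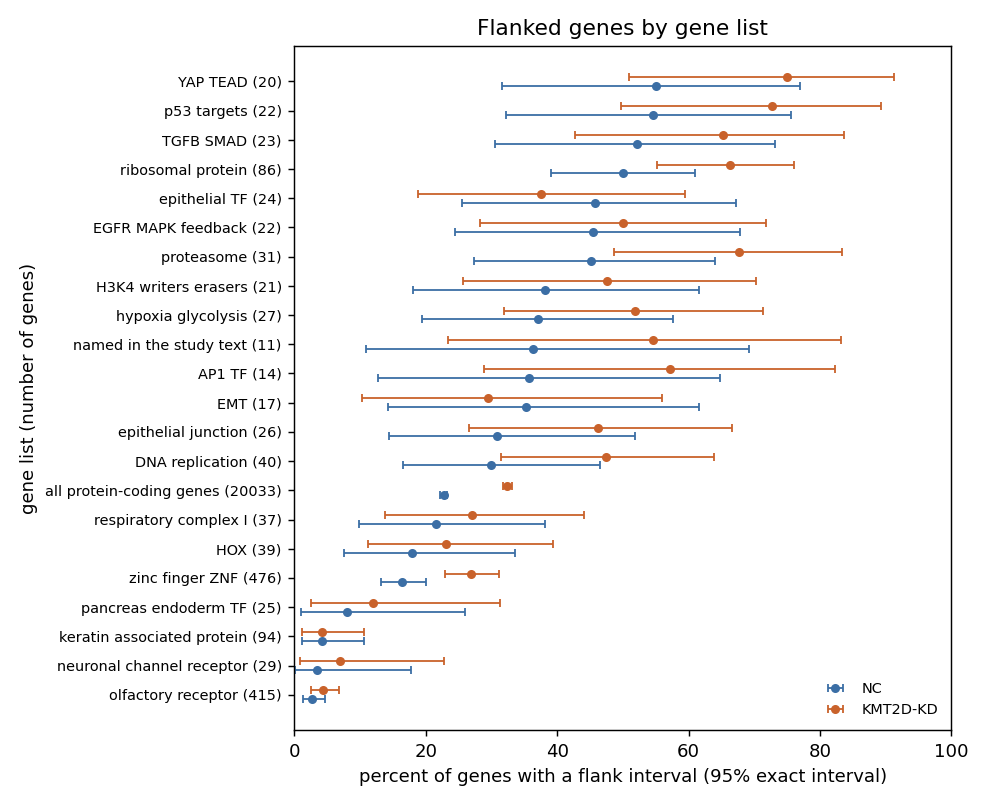
Percent of genes flanked on any side (horizontal axis, with 95% exact binomial intervals) for each gene list and for all protein-coding genes (vertical axis, number of genes in brackets), in NC and KMT2D-KD. The small lists have wide intervals that mostly overlap between the libraries, and the olfactory receptor list stands at 2.65% in NC and 4.34% in KMT2D-KD.

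Of 11 genes named in the study's text, 4 were flanked in NC and 6 in KMT2D-KD, each on the downstream side. TGFBR3, a TGF-β co-receptor, had fold enrichments of 4.91 and 5.97 in NC and 5.69 in KMT2D-KD. TSR1, a ribosome maturation factor, had 2.69 to 4.61 in NC and 5.69 and 6.21 in KMT2D-KD. METAP2, a methionine aminopeptidase, had 3.43 and 4.04. KMT2D itself had an interval in its gene body of 3.92 in NC and 5.13 in KMT2D-KD, and another of 4.22 in KMT2D-KD only. CCN1 (4.22) and TSPYL2 (4.55) were flanked in KMT2D-KD only. KLLN had 2 NC and 4 KMT2D-KD intervals within 6000 bases of its start, but all of them lay nearer the start of a neighbouring gene and none was counted for it. They were weak, with a −log10 q of 2.26 and 2.85 in NC and of 2.17 to 3.49 in KMT2D-KD. Cut to equal numbers of intervals, the KMT2D-KD list ended at a −log10 q of 2.82. Of its intervals near KLLN, only the one of 3.49 stayed in, while both NC intervals did.

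Few flank intervals met the KMT2D or EBF2 lists. Only 3 NC flank intervals (0.0432%) and 3 KMT2D-KD flank intervals (0.0276%) overlapped an interval of any of the 4 KMT2D and EBF2 lists, against 0.161% and 0.156% of the intervals elsewhere. Such overlap was rare throughout, at 94 of all 64843 NC (0.145%) and 127 of all 92135 KMT2D-KD H3K4me1 intervals (0.138%). The same flank intervals recurred across targets and conditions. Each of the 4 lists met 2 or 3 of the NC ones and all 3 KMT2D-KD ones, the KMT2D list of knockdown cells included. In NC they belonged to LRCOL1 (fold enrichment 3.51), COL6A1 (4.91) and ENSG00000290263 (11.2), and in KMT2D-KD to LRCOL1 (4.93), NFIC (5.69) and ENSG00000290263 (21.6). The interval 1710 bases upstream of ENSG00000290263, at chr4:2243884-2244088 in NC, was the highest of all flank intervals in both lists, with a −log10 q of 22.3 in NC and 59.6 in KMT2D-KD.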

How the data were processed

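ChIP-seq peak lists of SW1990 cells were used, 1 per target and condition. The authors cleaned the reads with in-house perl scripts and aligned them with bwa, and the submitters' processing notes name BWA, MACS2, HOMER and the build hg38. Peak-caller settings and versions are not given in the sources used here. For each interval the authors deposited a fold enrichment over the input (a ratio), a −log10 p, a −log10 q, and an integer score that follows the −log10 q. All H3K4me1 intervals were used as deposited, and the KMT2D and EBF2 lists only to mark overlaps. Read totals were not used here. Fragments at the summit were solved from fold enrichment and −log10 p, and gave a whole number (tolerance 0.001 in −log10 p) at 100% of flank intervals.

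The start of a gene was the 5′ end of its GENCODE release 44 record, for 20033 protein-coding genes. Overlap meant at least 1 shared base. Shares carry exact (Clopper-Pearson) 95% intervals, and log2 ratios of counts carry intervals derived from these. Intervals on medians are from order statistics. The libraries were compared without a test and without p-values, since intervals are not replicates. GC and CpG content were taken from 500-base windows of hg38. RefSeq held a promoter for 15345 of 20007 gene symbols. Genes were named by −log10 q: 8 with both sides in both lists, 5 with both sides in 1 list only, 3 intervals per list and side and 3 per list without counterpart (leaving out any that overlapped a KMT2D or EBF2 interval), the top 2 of each gene list, and genes named by the study. The members, gene lists and rules were chosen with earlier results of these data known. Scripts were tested on simulated data, with Python 3.11.15, pandas 2.3.3, scipy 1.17.1 and pysam 0.24.0.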

Additional observations from a re-analysis of the deposited data

How the results depend on the processing

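There was no replicate to leave out. Flank intervals rested on a median of 12 (NC) or 11 (KMT2D-KD) fragments, and an effect of depth was not tested. Of 64 recomputed values, 25 stayed within the counting interval of the reported one and 39 moved out of it. No log2 ratio among them changed sign, and the shares in percent cannot change sign. The log2 ratio of the number of flank intervals, flanked genes and genes with both sides was above 0 in 17 of 17 recomputations, and the downstream share above 50% in 12 of 12. Cutting to equal numbers leaves the shorter NC list whole. Under that setting the downstream share (66.1%) and both-sided share (12.3%) of NC could not move, yet they are included in these counts. The cause of a shift was not tested, also where the setting itself left fewer intervals or added starts.

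Restricting both lists to a −log10 q of at least 5 gave log2 ratios of 1.01 for flank intervals, 0.91 for flanked genes and 1.54 for genes with both sides. It gave shares found in the other list of 65.9% (NC) and 30.2% (KMT2D-KD), downstream shares of 62.3% and 63.8%, both-sided shares of 4.97% and 7.69%, and a median height ratio of 0.12. Equal numbers of top intervals gave log2 ratios of 0.092, 0.11 and 0.11, shares found of 59.8% and 50.7%, a both-sided share of 12.3% in KMT2D-KD and a height ratio of 0.25. Counting every protein-coding transcript start gave 0.60 for flank intervals and 0.45 for flanked genes, downstream shares of 63.6% and 63.9% and both-sided shares of 19.1% and 23.5%. A distance of 1000 to 3000 bases gave 0.59 for flanked genes, 40.6% of KMT2D-KD flanks found in NC, a downstream share of 67.3% in NC and both-sided shares of 7.88% and 9.62%. Starts with no other within 10000 bases gave a downstream share of 67.4% in KMT2D-KD and both-sided shares of 15.3% and 19.2%, and counting an interval for every start in reach gave 16.6% and 21.3%. An overlap of at least 50% lowered the shares found to 55.8% and 26.2%, and an interval within 1000 bases raised them to 85.2% and 59.7%. The height ratio was 0.12 for pairs of similar width and 0.13 with an overlap of 50% of both intervals. The summit in place of the midpoint moved no value out of its counting interval.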
